A study of Mus musculus with 8 samples.

Results

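Ucp1, Cidea, Ppargc1a, Dio2, Elovl3, Prdm16, Ppara and Cpt1b are the genes by which brown fat and its heat production are most often followed, and their transcripts were examined in mouse aorta during and after an infusion of angiotensin II. The 8 genes were chosen by name from the 35896 genes of the count table, with earlier results of these data already known. All 8 had a single row each and all 8 passed the filter on low counts, together with 17182 genes in all.

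Brown adipocytes burn fatty acids and let the energy out as heat. Noradrenaline from sympathetic nerves acts on beta-adrenergic receptors, cyclic AMP rises, lipid droplets are broken down, and the freed fatty acids both fuel the mitochondria and open uncoupling protein 1, which lets protons return across the inner membrane without making ATP. The same signal switches on transcription of Ucp1, Ppargc1a and Dio2. In mice the fat that surrounds the thoracic aorta resembles brown fat, so a piece of aorta taken with its surrounding fat carries these transcripts.

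The libraries came from male mice labelled C57BL6 that were 11 weeks old when the infusion began. AngII mice received angiotensin II, the pressor peptide of the renin-angiotensin system, from a subcutaneous minipump at 2.8 mg/kg/day for 2 weeks and were killed at its end. AngII+2W and AngII+3W mice had the same infusion and were then left for 2 or 3 weeks without it, and CTRL mice were untreated littermates of matched age, with the labels giving no time of death for them. Each group had 2 libraries, each made from a piece of the aorta of 2 pooled mice (16 mice in all), and the labels name neither the segment, the fat left on it nor the hour of day.

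Library totals ran from 18130441 to 21498200 counts, so that 3 counts, taken as the detection floor, were worth 0.140 to 0.165 CPM (counts for each 1000000 of the library), a limit that covers counting error only. All values below in CPM are scaled by edgeR's TMM factors, and fold changes carry the standard error (SE) and the Benjamini-Hochberg adjusted p (FDR) of edgeR's quasi-likelihood test over the 17182 genes. The labelled tissue was borne out by 10 smooth muscle markers, all above the floor in every library, which took 0.220% to 1.13% of counts. Fat was present in every piece too: 15 of 15 adipocyte markers were above the floor in all 8 libraries and took 1.46% to 2.03% of counts. AngII+3W replicate 1 stood apart from the rest in striated muscle, with 0.315% of its counts on 12 skeletal muscle markers against at most 0.00751% in any other library.

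The stretches just upstream of Dio2, Ppargc1a and Ucp1 are printed here because these genes had their lowest levels in the same group, AngII+2W. They are the 250 bases before the RefSeq start of each gene (GRCm38.p6), read 5′ to 3′ on the strand of the gene. Capitals mark every exact match, on either strand, to the cyclic AMP response element TGACGTCA, its core TGACG or the nuclear receptor half-site AGGTCA.
Dio2, chr12:90739039-90739288, minus strand: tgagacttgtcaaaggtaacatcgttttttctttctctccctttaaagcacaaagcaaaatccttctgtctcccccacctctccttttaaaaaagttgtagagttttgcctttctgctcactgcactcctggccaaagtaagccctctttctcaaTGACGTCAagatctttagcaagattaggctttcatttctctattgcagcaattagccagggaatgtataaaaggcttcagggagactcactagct
Ppargc1a, chr5:51567726-51567975, minus strand: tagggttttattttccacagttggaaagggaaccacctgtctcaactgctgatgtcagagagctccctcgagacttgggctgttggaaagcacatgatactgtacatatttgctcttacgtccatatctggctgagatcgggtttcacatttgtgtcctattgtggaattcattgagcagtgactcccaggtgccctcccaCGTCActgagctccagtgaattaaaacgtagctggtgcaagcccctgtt
Ucp1, chr8:83290098-83290347, plus strand: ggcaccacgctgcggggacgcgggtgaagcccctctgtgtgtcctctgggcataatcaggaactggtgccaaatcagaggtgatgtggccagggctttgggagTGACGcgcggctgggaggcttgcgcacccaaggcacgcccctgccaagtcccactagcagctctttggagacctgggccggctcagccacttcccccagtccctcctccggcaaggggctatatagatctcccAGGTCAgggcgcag

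Dio2 held the full element at -95 to -88 from its start, where the core reads on both strands and so overlaps the full match. Ppargc1a held the core at -49 to -45 on the opposite strand, and Ucp1 held it at -147 to -143, with a half-site at -14 to -9. Over the 32851 gene starts of the RefSeq table, searched in the 250 bases before each start, 1.55% held the full element, 17.8% the core and 14% the half-site. Also in the table, Ppara held a core at -222 to -218 and Prdm16 held a CCAAT box, a motif that 33.8% of starts held. Searches for the estrogen-related receptor site TCAAGGTCA (0.387% of starts), the half-site repeated with 1 base between (0.0335%), the E-box CACGTG (6.02%) and the D-box TTATGTAA (0.819%) matched none of these 5 upstream stretches. Elovl3 was not in the table, nor was Cpt1b, whose mean was also lowest in AngII+2W, and the stretch upstream of Cidea is not reported here.

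Per kilobase of exon, the scale on which genes can be set against each other, the 8 genes covered a wide range in CTRL. Ucp1 stood at 574 ± 154 CPM per kb (SD, n = 2) and Cidea at 538 ± 215 CPM per kb, which did not differ beyond their spread. Cpt1b followed at 129 ± 44.5 CPM per kb, then Ppara at 46.0 ± 14.6, Dio2 at 24.5 ± 15.3, Ppargc1a at 17.1 ± 7.23 and Prdm16 at 14.05 ± 0.428 CPM per kb, of which the last 3 overlapped in their ranges. Elovl3 was by far the lowest, at 1.81 ± 0.264 CPM per kb. The order at the top changed with the group, since in AngII Ucp1 reached 982 ± 236 CPM per kb against 446 ± 74.2 for Cidea, and in AngII+2W Cidea reached 635 ± 50.7 CPM per kb against 264 ± 19.9 for Ucp1.

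**Figure D1:**
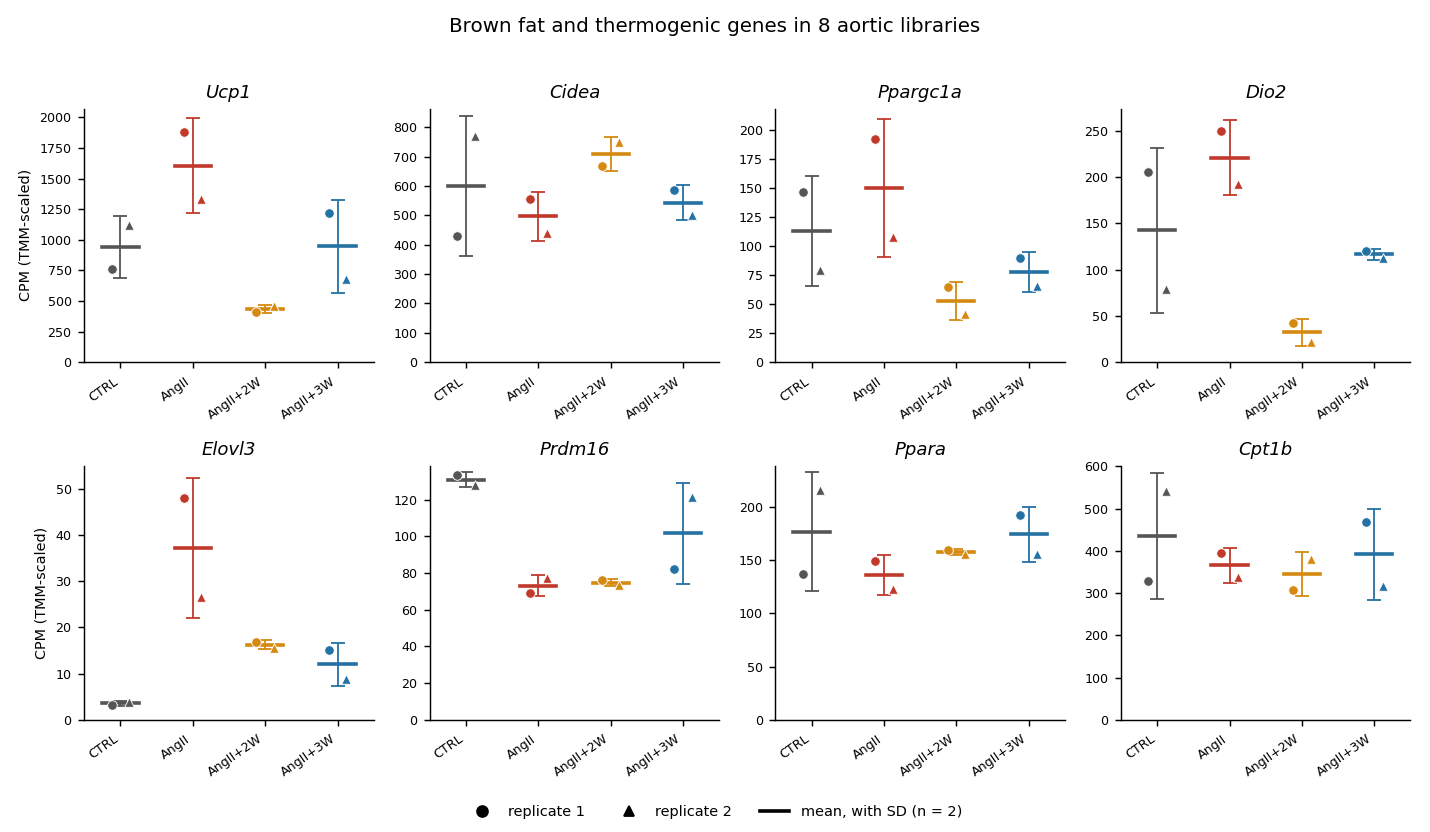
CPM (TMM-scaled, linear axes from 0) of the 8 brown fat and thermogenic genes in each group, with circles for replicate 1, triangles for replicate 2, and bars for the mean with its SD (n = 2). Ucp1, Ppargc1a, Dio2 and, with overlap between the groups, Cpt1b have their lowest means in AngII+2W, whereas Elovl3 is lowest and Prdm16 highest in CTRL.

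Ucp1 (ENSMUSG00000031710, chr8:83290352-83298452, plus strand) encodes uncoupling protein 1, the protein that makes brown fat thermogenic. It measured 761 and 1117 CPM in CTRL, 1879 and 1333 in AngII, then 409 and 455 in AngII+2W and finally 1217 and 680 in AngII+3W, from raw counts of 8470 to 34802. Both AngII libraries lay above all others and both AngII+2W libraries below all others, while AngII+3W spanned the CTRL range. The group means were 1606 ± 386 CPM in AngII, 948 ± 380 in AngII+3W, 939 ± 251 in CTRL and 432 ± 32.5 in AngII+2W, and the neighbours AngII+3W and CTRL did not differ beyond their spread.

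Against CTRL, Ucp1 had a log2 fold change of 0.77 (SE 0.322, FDR 0.233) in AngII, −1.12 (SE 0.325, FDR 0.303) in AngII+2W and 0.01 (SE 0.321, FDR 0.992) in AngII+3W, none of which passed the threshold of 0.05. Its largest difference was between AngII+2W and AngII, at −1.90 (SE 0.332, 95% interval −2.67 to −1.13, FDR 0.0674), a fold of 3.72, which also missed the threshold. Without AngII+3W replicate 1, the library with skeletal muscle transcripts, the same difference had an FDR of 0.0255, and without AngII+3W replicate 2 an FDR of 0.0268, although neither library belongs to the groups compared. Without any 1 of the other 6 libraries the FDR was higher than in the fit of all 8, up to 0.527 without AngII+2W replicate 2. From AngII+2W to AngII+3W Ucp1 differed by 1.13 (SE 0.325, FDR 0.395), and without AngII+3W replicate 2 that difference was 1.49 with an FDR of 0.0489, and without AngII+3W replicate 1 it was 0.65 with an FDR of 0.777.

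Dio2 (ENSMUSG00000007682, chr12:90724552-90738438, minus strand) encodes type 2 deiodinase, which makes active thyroid hormone inside the brown adipocyte. It measured 205 and 79.3 CPM in CTRL, 250 and 192 in AngII, then 42.5 and 21.8 in AngII+2W, followed by 120 and 112 in AngII+3W. The AngII+2W libraries were the 2 lowest of the 8, and the 2 CTRL libraries stood so far apart that they enclosed both AngII+3W libraries and 1 of the AngII libraries. The log2 ratio of the CTRL libraries was 1.37 for Dio2, against a median of 0.276 over all genes tested, and 97.6% of genes had a smaller one.

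The differences of Dio2 from CTRL were 0.63 (log2, SE 0.444, FDR 0.489) in AngII, −2.14 (SE 0.465, FDR 0.220) in AngII+2W and −0.29 (SE 0.443, FDR 0.837) in AngII+3W. Against AngII, AngII+2W differed by −2.78 (SE 0.475, 95% interval −3.88 to −1.67, FDR 0.0655), a fold of 6.86, and from AngII+2W to AngII+3W the difference was 1.86 (SE 0.461, FDR 0.391). None of these passed the threshold. The difference of AngII+2W from AngII had an FDR of 0.0423 without AngII+3W replicate 1 and of 0.0449 without AngII+3W replicate 2, and of 0.0669 to 0.527 without any 1 of the other 6. The size of the differences from CTRL depended on which CTRL library was kept. Without CTRL replicate 1, Dio2 stood at 1.48 in AngII and −1.30 in AngII+2W against CTRL, and without CTRL replicate 2 at 0.10 and −2.67, none of them called. Without AngII+2W replicate 1 the difference of AngII+2W from CTRL was −2.70.

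Ppargc1a (ENSMUSG00000029167, chr5:51454250-51567726, minus strand) encodes PGC-1alpha, the coactivator that drives mitochondrial biogenesis and Ucp1 transcription. It measured 147 and 79.3 CPM in CTRL, 192 and 108 in AngII, then 64.6 and 41.1 in AngII+2W and finally 90.0 and 65.5 in AngII+3W. Its AngII+2W libraries again lay below all others, and replicate 1 exceeded replicate 2 in each group. AngII+2W differed from AngII by −1.51 (log2, SE 0.392, FDR 0.140) and from CTRL by −1.09 (SE 0.389, FDR 0.376), and AngII+3W from AngII by −0.95 (SE 0.387, FDR 0.255). With 1 library left out, the first of these ranged from −1.87 to −1.03 and the second from −1.47 to −0.58, none of them called. Over the 8 libraries log2 CPM of Ppargc1a and Dio2 ran together (Pearson r = 0.913, Spearman rho = 0.976, and r = 0.819 without the 2 libraries farthest from the median of Ppargc1a), and that of Ucp1 ran with Dio2 at r = 0.791 and rho = 0.786. These coefficients are descriptions over 8 libraries that share their totals and 4 group means.

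Prdm16 (ENSMUSG00000039410, chr4:154316125-154636873, minus strand) encodes the zinc finger factor that sets brown adipocyte identity. It measured 134 and 128 CPM in CTRL, 69.0 and 77.3 in AngII, then 76.0 and 73.5 in AngII+2W, followed by 82.1 and 121 in AngII+3W. All 6 libraries from infused mice lay below both CTRL libraries, and the replicates of the first 3 groups lay close together. Prdm16 fell in AngII, at −0.84 on the log2 scale (SE 0.185, 95% interval −1.27 to −0.41, FDR 0.0451). This call was near the threshold, since it was lost with DESeq2's size factors (FDR 0.0518), with library totals alone (FDR 0.0927) and without any 1 of the 6 libraries of CTRL, AngII and AngII+2W (FDR up to 0.214). The difference from CTRL was −0.81 (SE 0.185, FDR 0.239) in AngII+2W and −0.37 (SE 0.184, FDR 0.469) in AngII+3W. In AngII+2W it had an FDR of 0.0288 without AngII+3W replicate 1 and of 0.0317 without AngII+3W replicate 2, and up to 0.999 without 1 of the others.

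Ppara (ENSMUSG00000022383, chr15:85734983-85802819, plus strand) encodes the nuclear receptor that switches on fatty acid oxidation genes. It measured 137 and 216 CPM in CTRL, 149 and 122 in AngII, then 160 and 156 in AngII+2W and finally 192 and 156 in AngII+3W. No group stood clear of CTRL, whose libraries enclosed or overlapped each of the other groups. The differences from CTRL were −0.38 (log2, SE 0.227, FDR 0.415), −0.16 (SE 0.227, FDR 0.867) and −0.02 (SE 0.226, FDR 0.978) in AngII, AngII+2W and AngII+3W.

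Elovl3 (ENSMUSG00000038754, chr19:46131897-46135694, plus strand), an elongase of very long chain fatty acids that cold strongly induces in brown fat, gave the clearest difference of the 8 genes. It measured 3.22 and 3.95 CPM in CTRL, 48.0 and 26.5 in AngII, then 16.9 and 15.5 in AngII+2W, followed by 15.2 and 8.76 in AngII+3W, from raw counts of 66 and 84 in CTRL and of 889 and 560 in AngII. Every library from infused mice lay above both CTRL libraries, and the group means fell in the order AngII, AngII+2W, AngII+3W and CTRL. The neighbours AngII+3W and AngII+2W did not overlap, though their difference of −0.44 (log2, SE 0.333, FDR 0.755) was not called.

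Elovl3 rose 10.4-fold in AngII, a log2 fold change of 3.37 (SE 0.367, 95% interval 2.52 to 4.23, FDR 0.00759). The call held in each of the 9 alternative fits of all libraries or of these 2 groups (FDR from 4.1e-19 to 0.0133) and was lost without CTRL replicate 1 (FDR 0.0634) and without AngII replicate 2 (FDR 0.0501). It differed from CTRL by 2.18 (SE 0.358, FDR 0.174) in AngII+2W and by 1.74 (SE 0.358, FDR 0.0986) in AngII+3W, of which neither passed. The difference in AngII+2W had an FDR of 0.0284 without AngII+3W replicate 1 and of 0.0301 without replicate 2 of that group, and the difference in AngII+3W an FDR of 0.0324 without AngII+3W replicate 2. Over the other libraries left out in turn these FDRs reached 0.877 without AngII+2W replicate 2 and 0.302 without CTRL replicate 1. Against AngII, Elovl3 stood at −1.2 (SE 0.329, FDR 0.153) in AngII+2W and −1.64 (SE 0.335, FDR 0.0620) in AngII+3W.

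Cidea (ENSMUSG00000024526, chr18:67343604-67367785, plus strand) encodes a lipid droplet protein abundant in brown adipocytes. It measured 430 and 769 CPM in CTRL, 555 and 438 in AngII, then 669 and 749 in AngII+2W and finally 586 and 501 in AngII+3W. The CTRL libraries were the lowest and the highest of all 8, so that no group stood clear of CTRL, and AngII+2W, where Ucp1 and Dio2 were lowest, had the highest mean of Cidea, at 709 ± 56.5 CPM. AngII+2W differed from AngII by 0.51 (log2, SE 0.274, FDR 0.441) and the differences from CTRL were −0.27 (SE 0.274, FDR 0.651), 0.24 (SE 0.274, FDR 0.826) and −0.14 (SE 0.273, FDR 0.873) in AngII, AngII+2W and AngII+3W. Cidea and Dio2 ran opposite over the 8 libraries (r = −0.777, rho = −0.738, and r = −0.839 without the 2 libraries farthest from the median of Cidea), again as a description.

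Cpt1b (ENSMUSG00000078937, chr15:89416405-89425863, minus strand) encodes the muscle and brown fat form of carnitine palmitoyltransferase 1, which admits long chain fatty acids to the mitochondrion. It measured 330 and 542 CPM in CTRL, 396 and 337 in AngII, then 308 and 381 in AngII+2W, followed by 467 and 316 in AngII+3W. All 4 groups overlapped, and the differences from CTRL were −0.25 (log2, SE 0.280, FDR 0.688), −0.34 (SE 0.280, FDR 0.743) and −0.15 (SE 0.280, FDR 0.866). Its values are uncertain in that Gm44502, a transcript of the same strand that runs over the gene, shares 1841 identical bases with it, 63.6% of the Cpt1b transcript. Gm44502 was given 0 to 145 counts a library, at most 2.10% of the sum of both. None of the other genes had more than 113 bases in common with another gene.

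Striated muscle expresses Cpt1b, Ppargc1a and Ppara as well, so the muscle markers are given beside them. The 10 cardiac markers took 0.493% and 0.229% of counts in CTRL, 0.134% and 0.0876% in AngII, then 0.0166% and 0.0011% in AngII+2W and finally 0.534% and 0.0367% in AngII+3W. Of these markers, Myh6, the atrial and adult ventricular myosin heavy chain, ran from 1.88 CPM in AngII+2W replicate 2 to 3340 CPM in AngII+3W replicate 1. Cpt1b in those 2 libraries was 381 and 467 CPM. AngII+2W thus had the least cardiac RNA and also the lowest means of Ppargc1a and of Cpt1b (345 ± 52.0 CPM), and the part of the former in the latter was not tested.

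Over the 8 genes, 2 of 8 were called in AngII against CTRL, where 5.1% of all genes tested were called. Against CTRL, 0 of 8 were called in AngII+2W, where the background was 0.0%, and 0 of 8 in AngII+3W, where it was 0.285%. Against AngII, 0 of 8 were called in AngII+2W (background 0.163%) and 0 of 8 in AngII+3W (background 1.61%), and between AngII+2W and AngII+3W 0 of 8 (background 0.0%). These are counts of edgeR's quasi-likelihood test, and at an unadjusted p below 0.05 they were 3, 5, 1, 4, 4 and 3 of 8 in the order given, against 20.2%, 10.7%, 12.5%, 15%, 17.8% and 8.83% of all genes. By DESeq2 and by edgeR's likelihood ratio test, 4 of 8 (Dio2, Elovl3, Prdm16 and Ucp1) were called in AngII+2W against CTRL and 4 of 8 (Dio2, Elovl3, Ppargc1a and Ucp1) in AngII+2W against AngII, with Elovl3 alone called in AngII+3W against CTRL and against AngII. Over all genes DESeq2 called 2.17%, 3.99%, 3.42% and 5.52% in these 4 comparisons, and the likelihood ratio test 2.44%, 4.46%, 3.24% and 6.22%.

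Counted by libraries that do not overlap, 3 of 8 genes stood clear of CTRL in AngII (Ucp1, Elovl3, Prdm16), 5 of 8 in AngII+2W (Ucp1, Ppargc1a, Dio2, Elovl3, Prdm16) and 2 of 8 in AngII+3W (Elovl3, Prdm16). The shares over all genes were 49.2%, 43.8% and 38.1%, so that such separation was common with 2 libraries a group. AngII+2W stood clear of AngII for 6 of 8 genes, against 54.2% of all genes. The 3 comparisons with CTRL share its 2 libraries, and those with AngII share the AngII libraries.

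**Figure D2:**
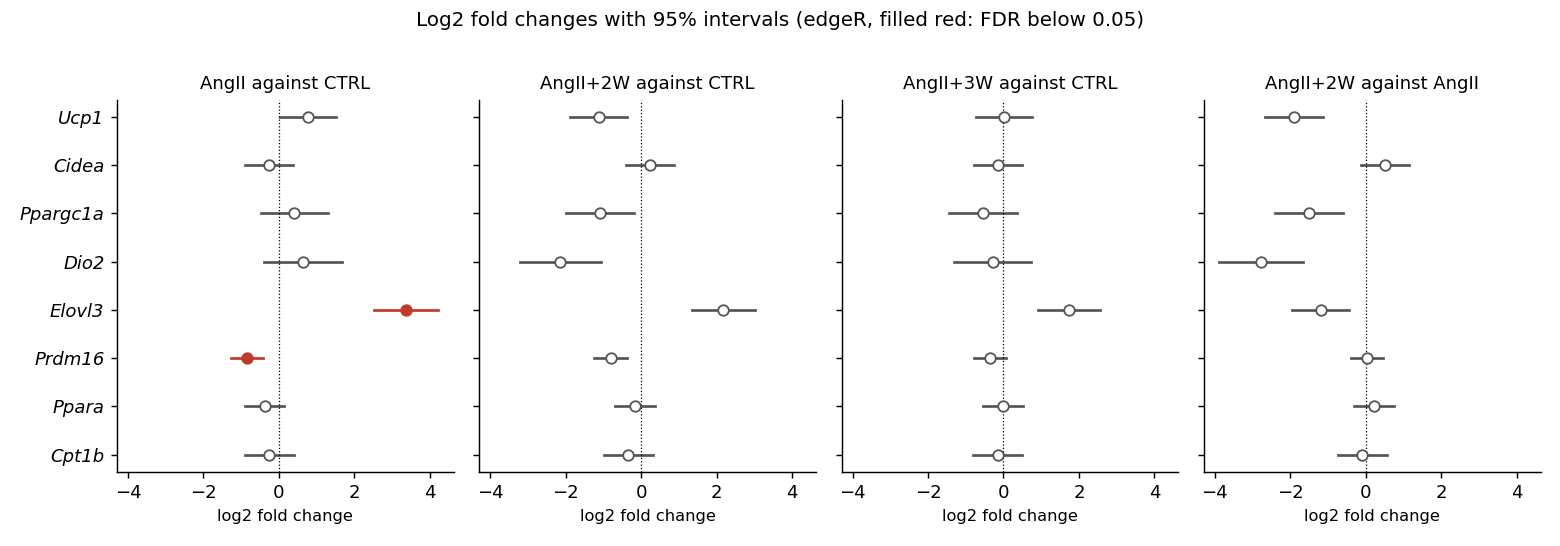
Log2 fold changes of the 8 genes (horizontal axis) in 4 comparisons, with 95% intervals from edgeR's quasi-likelihood fit and filled red points for an FDR below 0.05. Elovl3 (3.37) and Prdm16 (−0.84) are called in AngII against CTRL, and the intervals of Ucp1, Ppargc1a and Dio2 lie below 0 in AngII+2W against AngII without a call.

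Fewer adipocytes in a piece of aorta and less RNA of a gene in each adipocyte cannot be told apart in bulk tissue. Each gene was also read against 15 general adipocyte markers of the same library. Such a ratio sets a gene beside the marker transcripts and does not separate these cases, nor does it show the kind of fat in the piece. Of those markers 0 of 15 were called in any of the 6 comparisons by edgeR's quasi-likelihood test, and their share of counts was 1.51% and 2.01% in CTRL, 2.03% and 1.93% in AngII, then 1.52% and 1.46% in AngII+2W, followed by 1.79% and 1.81% in AngII+3W. Adipoq, which encodes the adipocyte hormone adiponectin, lay between 543 and 722 CPM in all 8 libraries.

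For every 1000 counts on the adipocyte markers, Ucp1 gave 49.2 and 56.5 in CTRL, 91.6 and 72.4 in AngII, then 26.8 and 31.7 in AngII+2W and finally 63.2 and 38.5 in AngII+3W. Both AngII libraries again lay above and both AngII+2W libraries below all others. Dio2 gave 13.2 and 4.02 in CTRL, 12.2 and 10.4 in AngII, then 2.78 and 1.52 in AngII+2W, followed by 6.27 and 6.38 in AngII+3W, with AngII+2W again the lowest. Ppargc1a gave 9.475 and 4.01 in CTRL, 9.38 and 5.88 in AngII, then 4.23 and 2.86 in AngII+2W and finally 4.68 and 3.72 in AngII+3W. On this scale its AngII+2W libraries overlapped those of CTRL and of AngII+3W. Cidea had 43.8 and 52.1 in AngII+2W against 23.8 to 38.9 in the other 6 libraries, so that its AngII+2W libraries stood above all others on this scale.

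Elovl3 gave, for every 1000 adipocyte marker counts, 0.208 and 0.200 in CTRL, 2.34 and 1.44 in AngII, then 1.11 and 1.08 in AngII+2W and finally 0.791 and 0.497 in AngII+3W, and its groups did not overlap on this scale. Prdm16 had 8.64 and 6.48 in CTRL, 3.36 and 4.2 in AngII, then 4.97 and 5.12 in AngII+2W, followed by 4.27 and 6.87 in AngII+3W, where only replicate 2 reached the CTRL range. Ppara had 7.27 and 6.65 in AngII against 8.84 to 10.9 in the other libraries, and Cpt1b ran from 17.9 to 27.4 with overlap between the groups. These ratios are descriptions without a test.

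**Figure D3:**
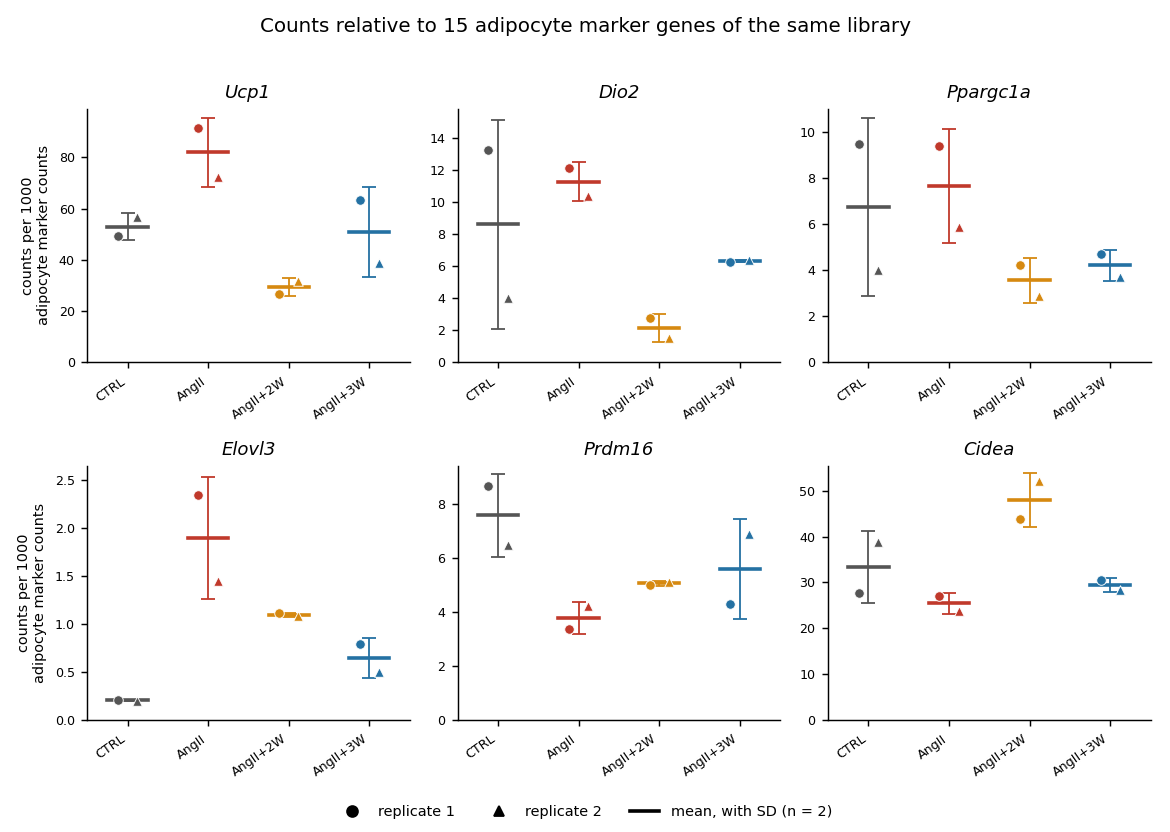
Counts of 6 of the genes for every 1000 counts on 15 adipocyte markers in the same library (linear axes from 0), with circles and triangles for replicates 1 and 2 and bars for the mean with its SD (n = 2). Ucp1 has a mean of 82.0 in AngII and 29.2 in AngII+2W, Elovl3 has 0.204 in CTRL and 1.89 in AngII, and Cidea is highest in AngII+2W at 47.9.

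The signals that reach brown fat from outside were read from a list of 17 genes of adrenergic and thyroid hormone signalling, of which 14 were tested. In AngII against CTRL 0 rose and 1 of 14 fell, and 0 of 14 were called in the other 5 comparisons. Adrb3, the beta-3 receptor through which noradrenaline acts on mouse adipocytes, measured 116 and 150 CPM in CTRL, 148 and 117 in AngII, then 204 and 183 in AngII+2W and finally 125 and 133 in AngII+3W. It was thus highest in the group with the lowest Ucp1, without a call (AngII+2W against CTRL 0.54, SE 0.175, FDR 0.337).

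Of 8 nerve and Schwann cell markers, the 3 with the smallest p against CTRL were genes of noradrenaline synthesis and uptake, and each had its 2 highest values in AngII+2W without a call against CTRL (FDR 0.174 for each). Th, which encodes tyrosine hydroxylase, the first enzyme of noradrenaline synthesis, measured 2.01 and 7.25 CPM in AngII+2W and 0.0537 to 0.332 CPM in the other 6 libraries. Dbh, which encodes dopamine beta-hydroxylase, measured 5.32 and 16.9 CPM in AngII+2W against 0 in both AngII libraries and at most 0.591 CPM elsewhere. Slc6a2, the noradrenaline transporter, measured 19.0 and 47.8 CPM in AngII+2W against 2.74 to 5.72 CPM in the other libraries.

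Over the whole list of 8 nerve and Schwann cell markers, 1 of 8 rose in AngII+2W against AngII (Dbh, FDR 0.0436, with Slc6a2 at 0.0674 and Th at 0.0776), 0 of 8 were called in AngII+2W against CTRL, and 3 of 8 rose in AngII+3W against AngII. The summed share was 0.0064% to 0.00789% in CTRL, 0.00453% to 0.00512% in AngII, 0.00884% to 0.0144% in AngII+2W and 0.0102% to 0.0120% in AngII+3W, and 3 of the 8 markers were under the floor in at least 1 library. AngII+2W replicate 2, with the highest Th, Dbh and Slc6a2, also had the lowest Dio2 and Ppargc1a of all libraries. Its Ucp1, at 455 CPM, was not the lowest and lay above the 409 CPM of AngII+2W replicate 1. The part of these nerve transcripts in the lower Ucp1, Dio2 and Ppargc1a of AngII+2W was not tested.

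**Figure D4:**
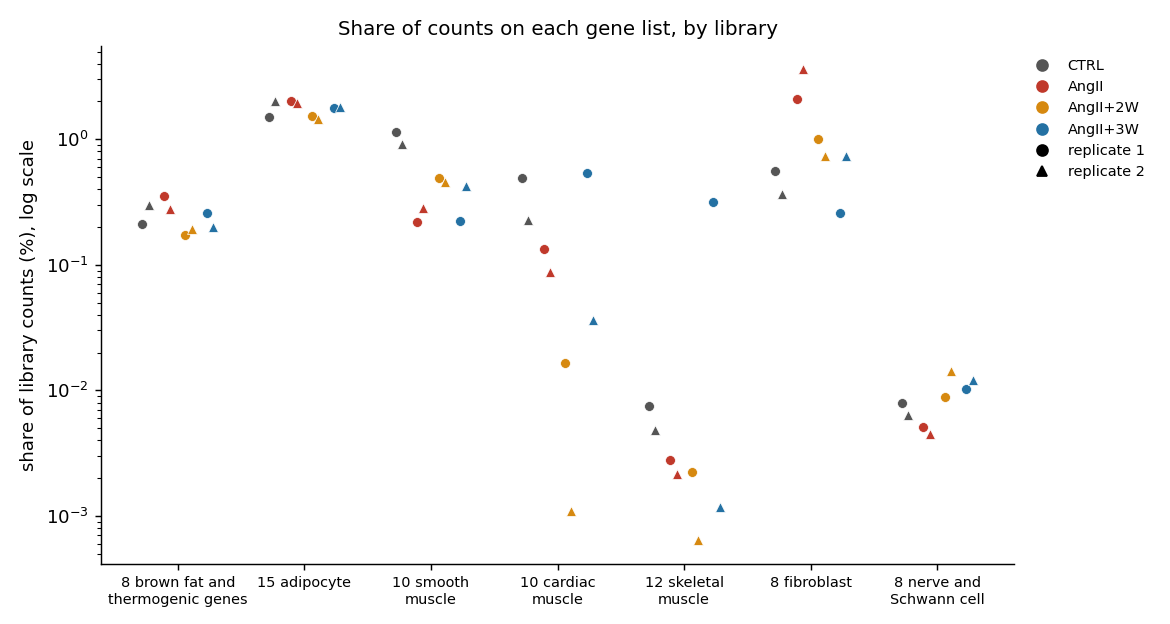
Share of library counts (percent, log scale) on the 8 brown fat and thermogenic genes and on 6 lists of cell type markers, with 1 point a library, colours for groups and circles or triangles for replicates 1 and 2. The adipocyte markers stay within 1.46% to 2.03%, whereas the cardiac markers range from 0.0011% to 0.534%.

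Of 23 further transcriptional regulators of thermogenesis, all tested, 0 rose and 1 fell in AngII against CTRL and 0 were called in the other 5 comparisons. The median log2 fold change in AngII was −0.20, against −0.01 over all genes tested. The gene that fell was Thrb, which encodes the beta thyroid hormone receptor, at 119 ± 3.05 CPM in CTRL and 67.6 ± 9.80 in AngII (−0.81, SE 0.158, FDR 0.0325). Ebf2, a marker factor of brown adipocyte precursors, measured 76.1 to 119 CPM in all 8 libraries (AngII against CTRL 0.19, SE 0.200, FDR 0.672).

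Among 18 tested of 19 genes of brown adipocyte mitochondria and secreted factors, 1 fell in AngII and 1 in AngII+3W against CTRL, and both calls were Ckb, the creatine kinase of a futile creatine cycle described in brown fat. Ckb measured 43.5 ± 3.29 CPM in CTRL, 24.9 ± 4.52 in AngII (−0.80, SE 0.149, FDR 0.0283), 23.0 ± 0.338 in AngII+2W (−0.92, SE 0.15, FDR 0.174) and 20.0 ± 0.0311 in AngII+3W (−1.12, SE 0.151, FDR 0.0455). Cox8b, a respiratory chain subunit of brown fat and striated muscle, measured 380 ± 132 CPM in CTRL and 324 ± 5.78 in AngII+2W, where Ucp1 was lowest (−0.23, SE 0.238, FDR 0.800). Its means were lower still in AngII, at 283 ± 47.4 CPM (−0.43, SE 0.238, FDR 0.378), and in AngII+3W, at 260 ± 17.3 CPM (−0.55, SE 0.239, FDR 0.406). Fgf21, a secreted factor, was not tested, with at most 1 count in any library.

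Ucp3, the uncoupling protein of muscle and brown fat, had its lowest level in AngII+2W like Ucp1 and its highest in AngII+3W. It measured 42.0 and 49.4 CPM in CTRL, 63.3 and 48.4 in AngII, then 28 and 30.1 in AngII+2W, followed by 93.5 and 65.8 in AngII+3W. The difference from CTRL was −0.65 (SE 0.204, FDR 0.315) in AngII+2W and 0.80 (SE 0.203, FDR 0.155) in AngII+3W, and neither passed. The higher AngII+3W value was that of replicate 1, the library with skeletal muscle transcripts, and AngII+2W had the least cardiac RNA. The part of muscle RNA in the Ucp3 values was not tested.

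Fatty acid oxidation and targets of PPAR alpha formed a list of 30 genes, all tested, of which 1 rose and 2 fell in AngII against CTRL and 0 were called in the other comparisons. The median of the list in AngII was 0.03 against −0.01 over all genes. Acsl5, which activates fatty acids to their CoA esters, rose from 130 ± 25.7 to 298 ± 105 CPM (1.2, SE 0.254, FDR 0.0407). Angptl4, a lipoprotein lipase inhibitor and PPAR target, fell from 275 ± 68.8 to 143 ± 6.04 CPM (−0.94, SE 0.199, FDR 0.0408).

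Of the 6 other elongases, 5 were tested and 0 were called in any comparison by edgeR's quasi-likelihood test. Elovl6, which extends palmitate to stearate, was the most abundant and, like Elovl3, lay above both CTRL libraries in all 6 libraries from infused mice. It measured 324 and 333 CPM in CTRL, 765 and 465 in AngII, then 857 and 771 in AngII+2W and finally 682 and 730 in AngII+3W (differences from CTRL 0.90, SE 0.232, FDR 0.0706, then 1.31, SE 0.234, FDR 0.174, and 1.10, SE 0.233, FDR 0.104). Elovl5 had differences of 0.70 (SE 0.220, FDR 0.121), 0.60 (SE 0.220, FDR 0.385) and 0.28 (SE 0.219, FDR 0.641) in the same order.

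The relatives of Cidea and the lipid droplet and lipolysis genes made a list of 10, all tested, of which 1 rose in AngII against CTRL and 0 were called otherwise. It was Abhd5, the coactivator of adipose triglyceride lipase, which rose from 89.0 ± 12.9 to 168 ± 36.5 CPM (0.92, SE 0.205, FDR 0.0476). Of 8 markers of beige adipocytes, the inducible thermogenic cells of white fat, 6 were tested and 0 were called in any comparison. Tmem26 measured 2.19 ± 0.901 CPM in CTRL and had lower means in all infused groups. They were 0.872 ± 0.295 in AngII (−1.33, SE 0.440, FDR 0.139), 0.495 ± 0.0923 in AngII+2W (−2.12, SE 0.466, FDR 0.223) and 0.51 ± 0.0378 in AngII+3W (−2.09, SE 0.468, FDR 0.120). Tbx1 measured 2.78 to 5.96 CPM over the 8 libraries.

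Marker transcripts of several other cell types of the vessel differed in AngII as well, where Elovl3 rose and Prdm16 fell. Smooth muscle markers took 1.13% and 0.923% of counts in CTRL and 0.220% and 0.285% in AngII, with 8 of 10 called lower. Fibroblast markers took 0.559% and 0.367% in CTRL and 2.11% and 3.60% in AngII. Of these 3 of 8 were called higher, the matrix genes Col1a1, Col3a1 and Lum, and 5 of 8 macrophage markers were called higher. Of the 8 endothelial markers 0 were called in any comparison. The adipocyte share differed between CTRL and AngII by less than the spread of the CTRL libraries, and the part of the other cell types in the Elovl3 and Prdm16 values was not tested.

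Genes of the circadian clock differed between groups as well, and the hour of death is not in the labels. Of 16 clock genes tested, 2 fell in AngII against CTRL (Per2, −1.60, SE 0.190, FDR 0.00886, and Nr1d1, −0.87, SE 0.193, FDR 0.0466), and 9 rose and 3 fell in AngII+3W against AngII. Arntl, which encodes BMAL1, the activator of the clock, fell in AngII+3W against CTRL by 1.77 on the log2 scale (SE 0.206, FDR 0.0455). Nr1d1 encodes REV-ERB alpha, a repressor known to act on Ucp1, and it measured 150 and 196 CPM in CTRL, 91.0 and 99.2 in AngII, then 133 and 134 in AngII+2W, followed by 161 and 222 in AngII+3W. Its part in the levels of Ucp1 or the other thermogenic genes was not tested.

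The genes whose log2 CPM was most like that of Ucp1 over the 8 libraries were Eif4a1, a translation initiation helicase (Pearson r = 0.976), Dnajc11, a mitochondrial protein (r = 0.960), Ankrd9 (r = 0.946), Mrps2, a mitochondrial ribosomal protein (r = 0.943), and Vmn1r211 (r = 0.943), which was at 0.591 to 1.03 CPM. Among the genes most like Cidea were Acads, a short chain acyl-CoA dehydrogenase (r = 0.970) and E130311K13Rik (r = 0.966). For Cpt1b they were Rhot2 (r = 0.983), Dlst, a subunit of the oxoglutarate dehydrogenase complex (r = 0.960), and Alkbh7 (r = 0.956). With 17182 genes and 8 libraries, high coefficients are many, and they are given as a description only.

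For Elovl3 the most alike was Pla2g2e, a secreted phospholipase A2 (r = 0.985), which measured 0.0487 and 0.0941 CPM in CTRL, 1.35 and 0.711 in AngII, then 0.420 and 0.322 in AngII+2W and finally 0.376 and 0.161 in AngII+3W. Its CTRL values lie under the floor of 3 counts. Ube4a (r = 0.971) and Klhdc10 (r = 0.968) followed. Among the most alike were, for Prdm16, Ehbp1l1 (r = 0.975) and Aopep (r = 0.959), for Ppargc1a Eprs (r = 0.973), Ghr, the growth hormone receptor (r = 0.959), and Itpa (r = 0.952), for Dio2 Erh (r = 0.969), Taf2 (r = 0.951) and Usp7 (r = 0.949), and for Ppara Nap1l4 (r = 0.980), Sdr39u1 (r = 0.968) and Nfe2l1 (r = 0.959).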

How the data were processed

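Per the labels, RNA of ribosome-depleted libraries was sequenced as paired ends. The authors quantified transcripts with Salmon against the mouse cDNA (GRCm38.p6) and deposited estimated counts per gene as whole numbers for the 8 libraries, without the transcript lengths, so no length offset was used. The table lists 35896 genes, and 11469 have no count at all.

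Here the estimated counts were filtered with filterByExpr (17182 genes kept), scaled by TMM and tested with edgeR 4.0.16 (quasi-likelihood F test in its older form, R 4.3.3) over all 8 libraries with 1 coefficient a group, 4 residual degrees of freedom and a threshold of 0.05 on the Benjamini-Hochberg adjusted p. The SE is the log2 fold change over the root of F. The biological coefficient of variation was 0.202. CPM are TMM-scaled, and levels per kb use GENCODE exon lengths (GRCm38). Log2 CPM for correlations used a prior count of 2. Sequence matches between transcripts were sought with BLAST 2.17.0 (at least 95% identity over 100 bases). The fit was tested on simulated data.

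Each library is a pool of 2 mice and p-values measure the spread between pools, with 2 a group. Library totals of 18130441 to 21498200 put the 8 genes at 66 counts or more in each library. The 8 genes and all gene lists were chosen with earlier results of these data known. Named in the text are the 8 genes, and from each list genes among its 4 most abundant or its 3 with the smallest p against CTRL. From each list, all called genes except those of cell type and clock lists were named too, and Ebf2, Fgf21 and Adipoq were picked for their known role, after their values were seen. For Ucp1 the 5 and for each other gene the 3 genes of highest r are given. A few genes that these rules name are not reported here. Alternatives were DESeq2's size factors, library totals, 2 other filters, DESeq2 1.42.0, the likelihood ratio test, the newer quasi-likelihood fit, only the groups compared, a replicate block, and each library left out.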

Additional observations from a re-analysis of the deposited data

How the results depend on the processing

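Of the 8 genes, 2 were called in AngII against CTRL, and 1 (Elovl3) with DESeq2's size factors or library totals alone. With DESeq2 or the likelihood ratio test, 4 were called in AngII+2W against CTRL in place of 0, 4 in AngII+2W against AngII in place of 0, and 1 in each of AngII+3W against CTRL, against AngII and against AngII+2W in place of 0. Calls over all 17182 genes rose too, to 373 and 420 from 0 in AngII+2W against CTRL. In AngII+2W against AngII they rose to 685 and 766 from 28. In AngII+3W they rose to 587 and 556 from 49 against CTRL and to 948 and 1068 from 276 against AngII. Between AngII+3W and AngII+2W they rose to 216 and 273 from 0. With every gene of at least 1 count, 2 were called in AngII+2W against AngII and 1 each in AngII+3W against CTRL and against AngII. Over all 24427 genes of that filter, 242, 200 and 522 were called in these comparisons. With a minimum of 10 counts everywhere, 1 was called in AngII+3W against AngII, where 362 of all 15048 genes were called. Fitted on the 2 groups alone, 3 were called in AngII+2W against AngII, with 841 of all genes in place of 28. With 1 library left out, the counts ranged from 0 to 2 in AngII against CTRL, AngII+2W against CTRL and AngII+2W against AngII, and from 0 to 1 in AngII+3W against CTRL and against AngII+2W. Calls over all genes moved with them, from 0 (without AngII replicate 2) to 1542 (without AngII+3W replicate 1) in AngII against CTRL, 0 to 271 in AngII+2W against CTRL, 0 to 293 in AngII+2W against AngII, 0 to 359 in AngII+3W against CTRL and 0 to 351 in AngII+3W against AngII+2W. The cause of these changes was not tested.

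With the replicate number as a block, 2 genes (Dio2, Ppargc1a) were called in AngII+2W against AngII and 1 (Ppargc1a) in AngII+3W against AngII. Over all 17182 genes, 26 and 221 were called in these comparisons under the block. Ucp1 in AngII+3W against CTRL turned to −0.024 in the same fit. The replicate numbers name different mice, and the replicate differences of 2 groups correlated at −0.045 to 0.248 over 17182 genes. Replicates of the same number were therefore not taken as pairs. Ucp1 in AngII+3W against CTRL also turned to −0.039 with library totals alone.

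Signs turned with 1 library left out for small differences. In AngII against CTRL the log2 values ranged from −0.63 to 0.20 for Cidea, −0.060 to 0.92 for Ppargc1a and −0.56 to 0.14 for Cpt1b. In AngII+2W against CTRL they ranged from −0.12 to 0.72 for Cidea, −0.45 to 0.20 for Ppara and −0.65 to 0.064 for Cpt1b. In AngII+3W against CTRL they ranged from −0.48 to 0.37 for Ucp1, −0.50 to 0.32 for Cidea, −0.83 to 0.55 for Dio2, −0.31 to 0.33 for Ppara and −0.48 to 0.23 for Cpt1b. In AngII+2W against AngII they ranged from −0.049 to 0.12 for Prdm16 and −0.24 to 0.058 for Cpt1b, and in AngII+3W against AngII from −0.041 to 0.31 for Cidea and −0.22 to 0.35 for Cpt1b. Of 64 log2 ratios of the genes to the adipocyte markers under another denominator, 60 moved by less than their spread and 4 by more.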
